A study of Homo sapiens with 6 samples.

Results

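Chromatin immunoprecipitation followed by sequencing was used to map NeuroD1 and H3K4me3 in H82 and H524, established human small cell lung cancer cell lines that were cultured without treatment. The regions at 9 genes for neural transcription factors are described here, namely ONECUT2, PROX1, POU3F2, POU4F1, SOX4, SOX11, ISL1, NKX2-2 and PAX6. A listed region was taken when it lay within 50 kb of the gene's span in hg19, a rule that uses position and no measured value. Of 61250 distinct regions in the 4 peak lists, 81 met this rule. They were 2 of 3854 NeuroD1 regions in H82, 24 of 20593 NeuroD1 regions in H524, 24 of 18208 H3K4me3 regions in H82 and 31 of 18595 H3K4me3 regions in H524.

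Each line contributed a NeuroD1 library (antibody from Cell Signaling), an H3K4me3 library (antibody ab8580 from Abcam) and an input without antibody that was not analysed here. With 1 library per antibody and line, a difference between lines has no replicate check and no p-value is given. The depth behind a list is unknown, because the files give no read counts. The labelled cell type was not checked against marker genes, as the lists name no genes.

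NeuroD1 is a basic helix-loop-helix factor of neuronal and endocrine differentiation that binds E-boxes, and it marks a neuroendocrine subtype of small cell lung cancer. H3K4me3 is a histone mark of active promoters. The 9 genes encode DNA-binding proteins of neural and endocrine development. ONECUT2 carries a cut domain and a homeodomain, PROX1 is a prospero-type homeodomain protein, POU3F2 (BRN2) and POU4F1 (BRN3A) are POU-homeodomain proteins, and SOX4 and SOX11 belong to the SoxC group of HMG-box factors. ISL1 is a LIM-homeodomain protein, NKX2-2 an NK homeodomain protein and PAX6 a paired-box homeodomain protein.

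The promoter letters of 5 of these genes are shown because the nearest H524 NeuroD1 region lay at most 1.03 kb from the 5′ end of their spans. They are the 250 bases before the start in RefSeq, build GRCh38.p14, 5′ to 3′ on the gene's strand, with every match to CANNTG, the E-box core, in capitals. CANNTG reads the same on both strands. The peak lists are in hg19, so no base shown here is placed inside a region.

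ONECUT2, chr18:57435124-57435373, plus strand: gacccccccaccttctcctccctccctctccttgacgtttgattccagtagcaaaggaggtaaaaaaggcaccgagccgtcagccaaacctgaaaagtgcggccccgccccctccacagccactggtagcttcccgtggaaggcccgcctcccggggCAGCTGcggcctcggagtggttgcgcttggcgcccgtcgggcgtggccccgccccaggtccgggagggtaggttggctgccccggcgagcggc
POU3F2, chr6:98834324-98834573, plus strand: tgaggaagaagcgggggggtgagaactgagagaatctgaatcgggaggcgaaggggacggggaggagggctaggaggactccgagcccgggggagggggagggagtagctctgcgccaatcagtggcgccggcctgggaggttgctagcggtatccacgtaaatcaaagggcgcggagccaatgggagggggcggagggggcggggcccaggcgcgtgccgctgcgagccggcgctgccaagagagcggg
POU4F1, chr13:78603553-78603802, minus strand: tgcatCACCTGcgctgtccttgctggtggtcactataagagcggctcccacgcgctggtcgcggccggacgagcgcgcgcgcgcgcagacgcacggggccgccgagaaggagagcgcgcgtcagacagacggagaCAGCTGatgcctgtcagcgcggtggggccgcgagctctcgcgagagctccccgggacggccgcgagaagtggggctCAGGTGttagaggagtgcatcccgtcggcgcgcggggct
SOX4, chr6:21593501-21593750, plus strand: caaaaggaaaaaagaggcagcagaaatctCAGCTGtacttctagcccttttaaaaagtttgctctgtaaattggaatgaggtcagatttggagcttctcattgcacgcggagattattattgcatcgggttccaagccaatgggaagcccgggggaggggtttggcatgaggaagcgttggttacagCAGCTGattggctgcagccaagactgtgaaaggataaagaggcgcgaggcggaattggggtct
ISL1, chr5:51383198-51383447, plus strand: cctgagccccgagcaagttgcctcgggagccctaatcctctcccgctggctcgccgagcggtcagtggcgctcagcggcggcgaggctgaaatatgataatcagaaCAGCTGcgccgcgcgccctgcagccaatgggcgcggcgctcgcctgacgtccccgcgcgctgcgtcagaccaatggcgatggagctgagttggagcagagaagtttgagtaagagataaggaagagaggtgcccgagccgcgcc

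CAGCTG, an E-box that is its own reverse complement, was found in 4 of these 5 windows. It lay 93 bases before the start in ONECUT2, 115 in POU4F1, 144 in ISL1, and both 221 and 63 in SOX4. POU4F1 also held CACCTG at 245 bases and CAGGTG at 39 bases before the start, whereas POU3F2 held no CANNTG. Across all 35116 promoter windows of this length in the table, 61.8% held CANNTG and 14.0% held CAGCTG. The E-box CAGATG, or CATCTG on the other strand, was in 12.2% of all windows and in none of the 5 shown, and CATATG in 2.63% and in none of them. The table matched 7 of the 9 genes. NKX2-2 had 2 windows, of which the one farther upstream held CAGCTG, then CAAGTG, then CATATG. PAX6 had 9 windows, of which 6 held CANNTG, 2 held CAGATG or CATCTG, 1 held CATATG and 0 held CAGCTG. Over the 16 windows of the 7 matched genes, 5 held CAGCTG, 2 held CAGATG or CATCTG and 2 held CATATG. PROX1 and SOX11 were not matched. These matches describe letters only.

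NeuroD1 was listed at all 9 genes in H524 and at PROX1 and SOX11 alone in H82. The share of all genes with a NeuroD1 region within 50 kb was not computed. Of all H3K4me3 regions, 64.0% in H524 and 33.4% in H82 had a NeuroD1 region of their line within 50 kb. The H3K4me3 mark was listed at 7 genes in H82 and at 8 in H524, so most of these loci carried the promoter mark in both lines while NeuroD1 was listed in H524. SOX4 and SOX11 held the most H524 NeuroD1 regions, with 6 and 5, followed by 3 each at ONECUT2, PROX1 and NKX2-2 and 1 each at POU3F2, POU4F1, ISL1 and PAX6. As a share of the list, the loci held 0.0519% of the H82 NeuroD1 regions (exact Clopper-Pearson 95% interval 0.00629 to 0.187) and 0.117% of those of H524 (0.0747 to 0.173). These intervals, which cover counting error only, overlap. The H524 NeuroD1 list was 5.34-fold longer than the H82 list, and with it limited to the 3854 highest-scoring regions the count at the loci was 4 in place of 24. Those 4 lay at PROX1, PAX6 and, in a pair, at SOX4.

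**Figure D1:**
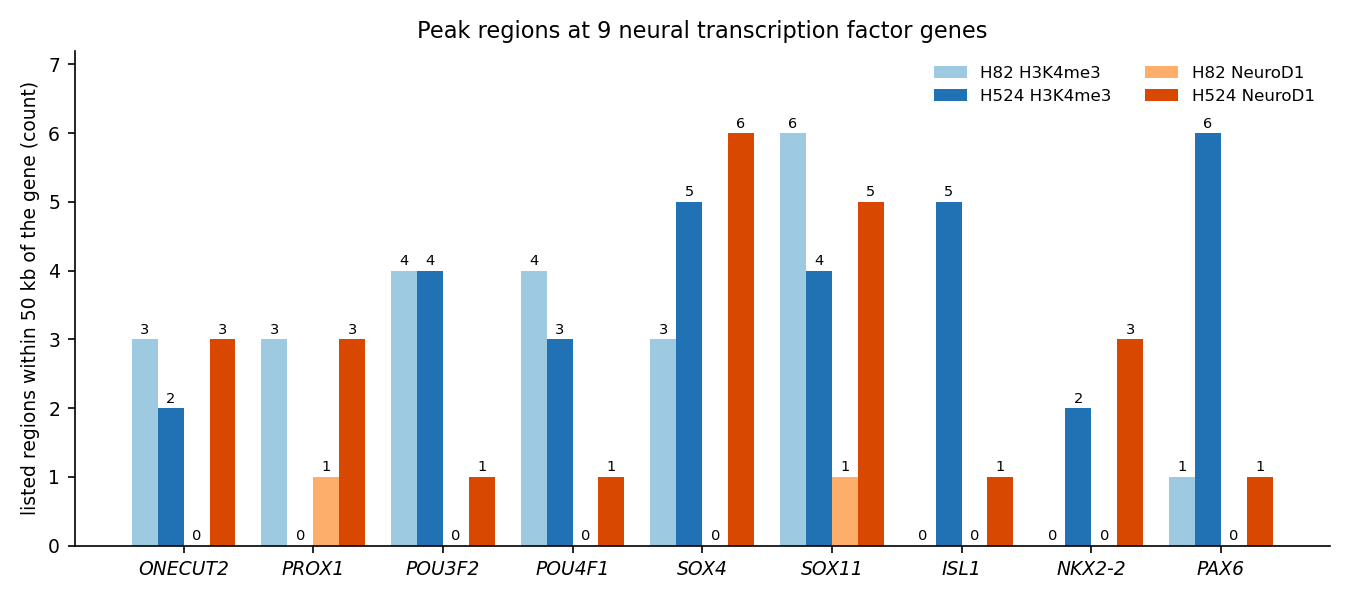
Number of listed regions (vertical axis) within 50 kb of each of the 9 genes (horizontal axis), with 1 bar for each line and antibody and the count above it. H524 NeuroD1 has a bar at every gene, from 1 to 6 regions, and H82 NeuroD1 only at PROX1 and SOX11, while H3K4me3 of H82 is at 0 for ISL1 and NKX2-2 and H3K4me3 of H524 is at 0 for PROX1.

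ONECUT2 (chromosome 18, 55.103 to 55.158 Mb, plus strand) carried H3K4me3 at its 5′ end in both lines, and NeuroD1 in H524 lay under it. H82 listed H3K4me3 at 55101107 to 55102835, at 55103957 to 55105099 and at 55106278 to 55106661, with the first of them highest in score. The H524 mark was at 55101957 to 55102392 and at 55104000 to 55105890, each overlapping an H82 region. Both lines therefore had a marked stretch on either side of the span's start, and the third H82 region had no H524 counterpart. NeuroD1 of H524 was listed at 55102292 to 55102636, 0.364 kb upstream of the span, and shared 101 bp with the mark of H524 and all of its 345 bp with that of H82. A further region, 55104743 to 55105110, lay wholly on the H524 mark but scored 1.44 against a lowest score of 1.30 in its list. Scores are the authors', read as −log10 of an adjusted p-value, and are used here to rank regions within a list. The remaining one, 55139449 to 55139905, was inside the span 36.4 kb from the 5′ end and 33.6 kb from the nearest H524 mark. The nearest H82 NeuroD1 region was 425 kb from ONECUT2.

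PROX1 (chromosome 1, 214.161 to 214.215 Mb) was the only gene of the 9 with a NeuroD1 region in the same place in both lines, and also the only one with H3K4me3 in H82 and not in H524. The H82 NeuroD1 region ran from 214176334 to 214177600 and the H524 region from 214176143 to 214177403, so that 1070 bp were shared. Each had 2 summits and lay inside the span, about 15 kb from its low-coordinate end. They stood at percentile 71.8 by score in the H82 list and 96.6 in the H524 list, with scores of 5.34 and 19.1, where the percentile is the rank by score counted from the lowest, averaged over ties, in percent of the list. The H524 value was the highest of the 24 NeuroD1 regions at these genes. H82 had H3K4me3 at 214160084 to 214160646, 214161885 to 214163451 and 214164081 to 214164387, around the low-coordinate end, and the middle one reached percentile 94.8 with a score of 10.2. In H524 the nearest marked region was 239 kb from the span. The shared NeuroD1 site was thus 11.9 kb from H3K4me3 in H82 and 276 kb from it in H524. H524 added NeuroD1 regions at 214156723 to 214157574, 3.43 kb below the span, and at 214240226 to 214241350, 25.2 kb above it. Within 1 Mb of PROX1 the H3K4me3 lists held 14 regions in H82 and 7 in H524, and the 14 include the 3 at the gene. The part of this wider difference in the result at PROX1 was not tested.

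The POU genes had the mark at their 5′ ends in both lines and a lone NeuroD1 region of H524 beside it. For POU3F2 (chromosome 6, 99.283 to 99.285 Mb, plus strand) the marked regions over the gene, 99283730 to 99285104 in H82 and 99283440 to 99284630 in H524, shared 901 bp. Another pair, 99293144 to 99293784 and 99293223 to 99293657, lay about 8 kb downstream and shared 435 bp. H82 alone had marks 3.12 and 11.7 kb upstream, and H524 alone at 99280810 to 99281451 and 99285489 to 99285942. The NeuroD1 region of H524, 99282157 to 99282474, was 0.526 kb upstream of the span and fell in the gap between marked regions of H524, 0.706 kb from the nearer and 0.966 kb from the farther. It stood at percentile 33.0.

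POU4F1 (chromosome 13, 79.173 to 79.178 Mb, minus strand) had 4 marked regions in H82 and 3 in H524. Over the 5′ part of the gene, 79177179 to 79177815 in H82 overlapped 79176958 to 79177335 in H524 by 157 bp. The ranks differed in order, since this region was at percentile 72.6 in H82 but at 11.9 in H524. A region about 4.9 kb upstream, 79182881 to 79183664 in H82 and 79182913 to 79184066 in H524, was at percentile 31.3 in H82 and at 84.6 in H524. In H82 the higher rank was therefore at the gene and in H524 at the upstream region. H524 NeuroD1 at 79179030 to 79179400 lay between them, 1.03 kb upstream of the span and 1.70 kb from the nearest H524 mark, at percentile 24.4. The nearest H82 NeuroD1 region to POU3F2 was 109 kb away and that to POU4F1 846 kb away.

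**Figure D2:**
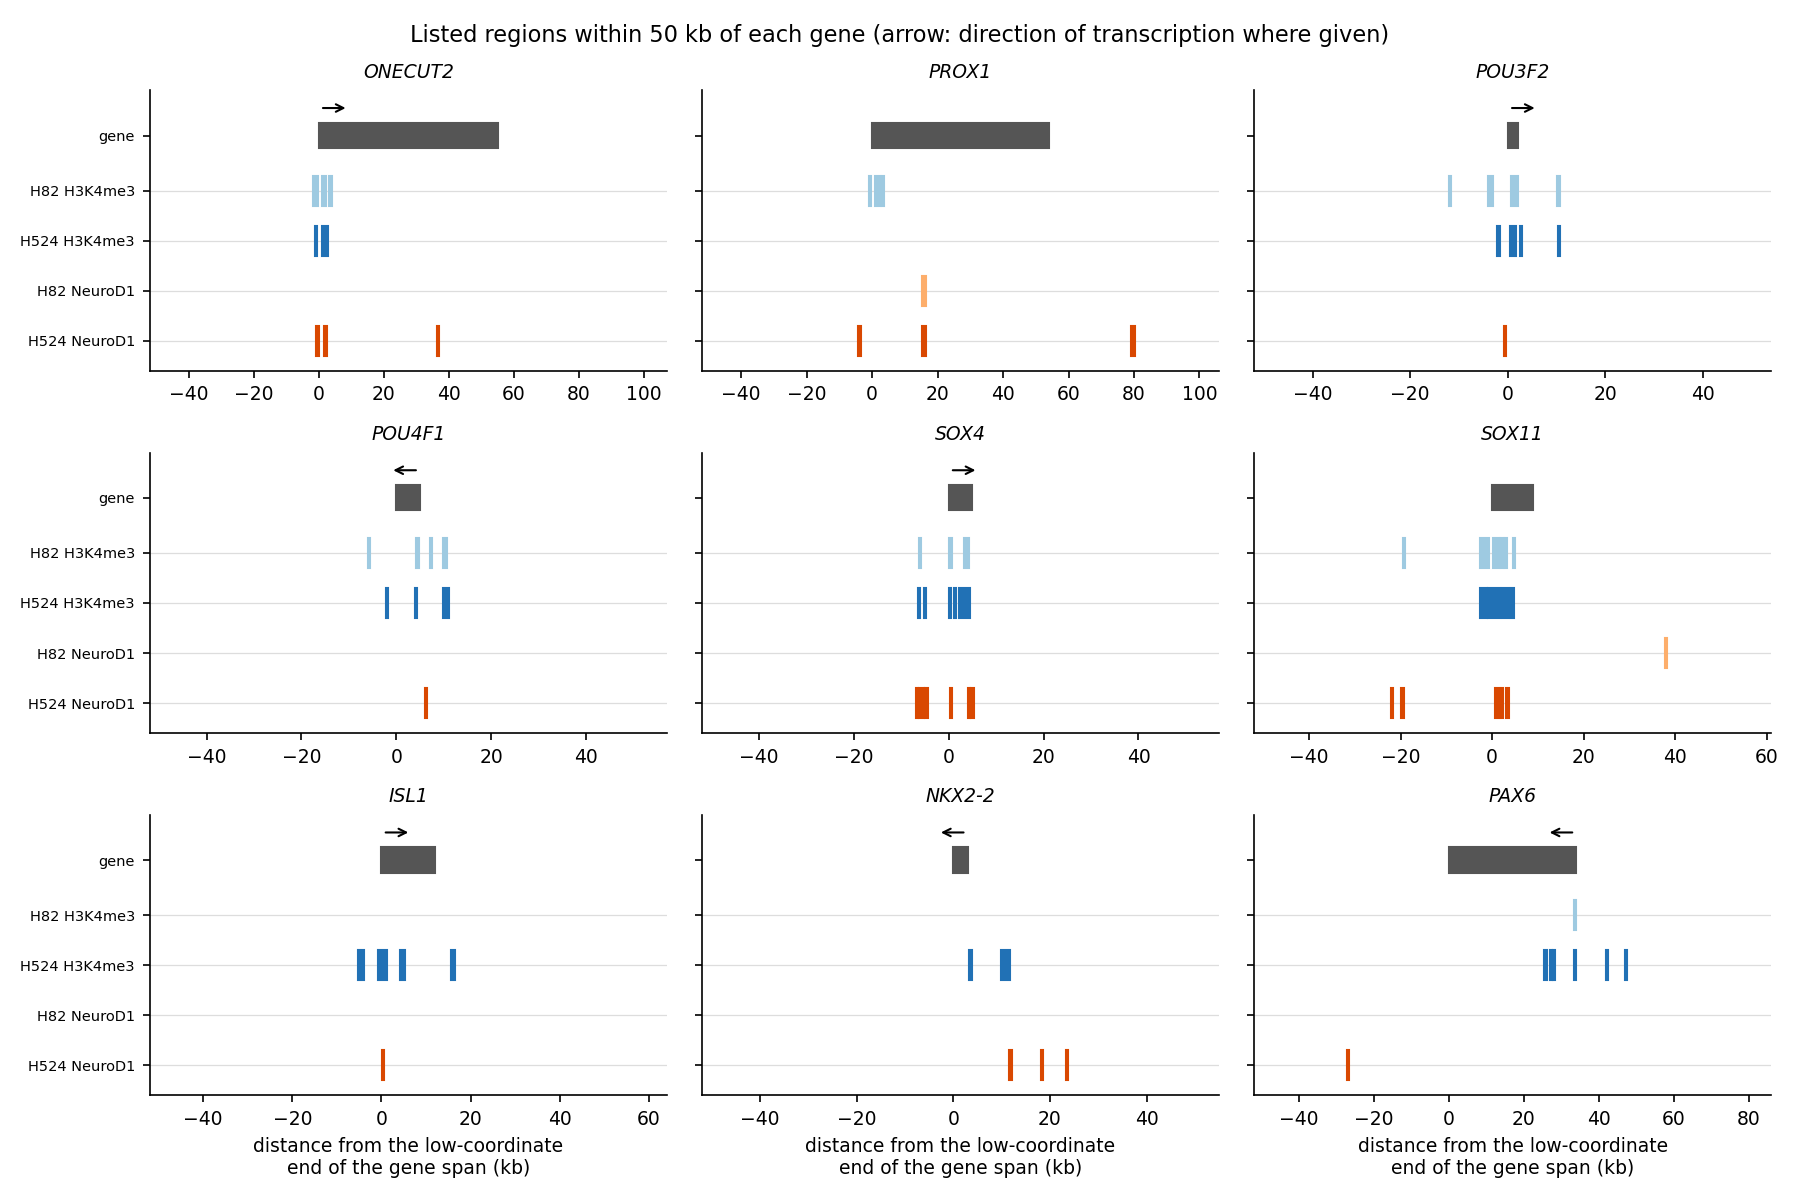
Map of every listed region within 50 kb of the 9 genes, by line and antibody (rows), with the gene span in grey and the distance from its low-coordinate end in kb on the horizontal axis. Narrow regions are drawn at a minimum width so that they can be seen. NeuroD1 of H524 appears in every panel, NeuroD1 of H82 at 1 place each in PROX1 and SOX11, and only the PROX1 one is matched in H524.

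The SOX genes, single-exon genes of the SoxC group, had the densest NeuroD1 listing in H524 and none shared with H82. Over the whole H524 NeuroD1 list, 9.98% of regions were shared with H82. SOX4 (chromosome 6, 21.594 to 21.599 Mb, plus strand) had a group of 3 regions upstream, at 21587042 to 21587457, 21587798 to 21588784 and 21589124 to 21589613, separated by 0.340 and 0.339 kb. The first and second of these stood at percentiles 88.0 and 85.8, the third at 40.3. Marked regions of H524 were interleaved with them. The one at 21587516 to 21587846 shared 49 bp with the second NeuroD1 region, and the one at 21588886 to 21589317 shared 194 bp with the third. Both marked regions ranked low, at percentiles 0.567 and 23.5. In H82 the same stretch held H3K4me3 at 21587821 to 21588124, at percentile 53.8 and wholly inside the second NeuroD1 interval of H524.

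At the SOX4 gene itself both lines carried the mark at the start, 21593988 to 21594776 in H82 and 21594100 to 21594602 in H524. Both also carried it toward the 3′ end, at 21597299 to 21598334 in H82 and, in a wider region with 4 summits, at 21596254 to 21598522 in H524. The latter stood at percentile 83.3 in H524, against 24.1 for its H82 counterpart. NeuroD1 of H524 was listed on each of these. The NeuroD1 region 21594229 to 21594666 shared 374 bp with the start region. That at 21598022 to 21598400 lay wholly in the other but ranked low, at percentile 5.60. The last region, 21598711 to 21599291, reached the end of the span 0.189 kb beyond the mark. The nearest H82 NeuroD1 region was 500.4 kb from SOX4.

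SOX11 (chromosome 2, 5.833 to 5.842 Mb) was covered by the mark over more bases than any other of the 9 loci in each line, 4688 bp in H82 and 6478 bp in H524. H524 had 4 regions that nearly joined, at 5830348 to 5831806, 5832159 to 5834791, 5835053 to 5836759 and 5837031 to 5837709, all at or above percentile 80.7. In H82 the same stretch was divided into 5 regions, of which 5833231 to 5834537 was at percentile 92.7 and 5830446 to 5832317 at 69.6, while the other three ranged from 2.09 to 55.6. The strongest marked region was thus at the low-coordinate end of the gene in H82 and further inside it, at percentile 95.3, in H524. NeuroD1 of H524 was listed under the mark at 5833634 to 5834505, 5834975 to 5835258 and 5835951 to 5836730. Each of these overlapped H3K4me3 in both lines, but the middle one ranked low, at percentile 4.22.

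Away from the SOX11 gene, H524 had NeuroD1 at 5810919 to 5811182 and 5813141 to 5813702. The latter shared 249 bp with an H3K4me3 region of H82, 5813454 to 5813763, where H524 had none. It was the only NeuroD1 region at the 9 genes that met the mark of the other line alone. The NeuroD1 region of H82, 5870694 to 5871068, lay on the other side of the gene, 28.7 kb above the span. It stood at percentile 82.3 and had no H524 counterpart.

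**Figure D3:**
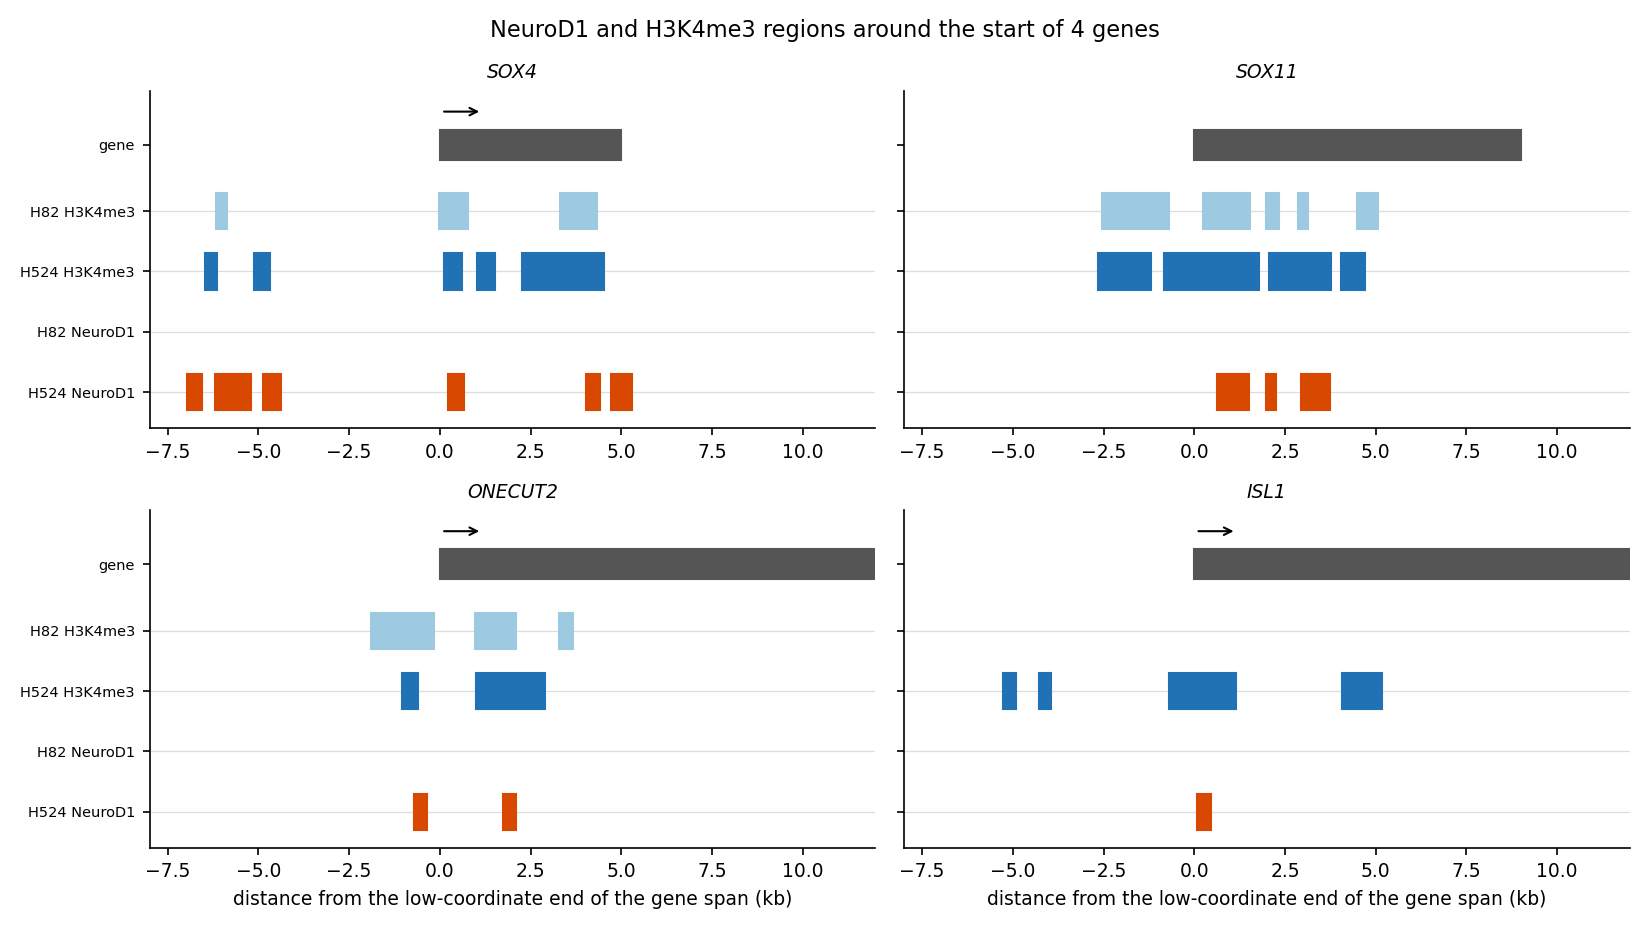
Listed regions to scale around the start of SOX4, SOX11, ONECUT2 and ISL1, by line and antibody (rows), with the gene span in grey and the distance from its low-coordinate end in kb on the horizontal axis. The H524 NeuroD1 regions at the starts of these genes overlap H3K4me3 of H524, and at ISL1 no H82 region of either antibody is present.

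ISL1 and NKX2-2 were marked in H524 alone, and NeuroD1 was listed at both in that line. ISL1 (chromosome 5, 50.679 to 50.691 Mb, plus strand), a factor of motor neurons and pancreatic islets, had 5 H3K4me3 regions in H524. The region over the 5′ end, 50678291 to 50680146, had a score of 14.2 and stood at percentile 98.8, rank 222 of 18595, the highest of the 31 H524 marked regions at these genes. The NeuroD1 region of H524, 50679088 to 50679461, lay wholly within it but ranked low, at percentile 24.9. The other marked regions were 3.95 and 4.90 kb upstream, inside the span at 50683080 to 50684180, and 3.59 kb downstream. In H82 the nearest H3K4me3 region was 857 kb from ISL1 and the nearest NeuroD1 region 840 kb. Within 1 Mb, H82 listed 1 H3K4me3 region and H524 listed 11, of which 5 were those at the gene. The sparse listing in H82 thus extended well beyond the gene, and its part in the difference at ISL1 was not tested.

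NKX2-2 (chromosome 20, 21.492 to 21.495 Mb, minus strand), a factor of ventral spinal cord and endocrine pancreas, had H3K4me3 in H524 at 21495324 to 21495789, 0.324 kb upstream of the span, and at 21501779 to 21503771, 6.78 kb upstream. Their percentiles were 74.8 and 78.8. The second, with 3 summits, was the wider. The 2 starts of NKX2-2 in the RefSeq table are 9.73 kb apart, so the distances given here hold for the shorter gene model. The farther start was not placed in hg19. The marked region 6.78 kb and the NeuroD1 region 8.58 kb upstream of the span may lie near that start. NeuroD1 of H524 was listed at 21503583 to 21504101, sharing 189 bp with the second marked region, and farther upstream at 21510239 to 21510599 and 21515243 to 21515579. All 3 were in the lower part of their list, at percentiles 26.1, 17.3 and 32.1. In H82 the nearest marked region was 116 kb from the span and the nearest NeuroD1 region 705 kb. Within 1 Mb, its H3K4me3 list held 7 regions, against 11 in H524, of which 2 were those at the gene.

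PAX6 (chromosome 11, 31.806 to 31.840 Mb, minus strand), a factor of eye, forebrain and islet development, carried a narrow marked region near its 5′ end at the same place in both lines, 31839236 to 31839492 in H82 and 31839237 to 31839560 in H524. They shared 256 bp. The H524 one stood at percentile 73.7 and that of H82 at 34.5. H524 alone added 3 marked regions inside the gene, 5.76 to 7.99 kb from the 5′ end, and 2 upstream at 31847795 to 31848214 and 31852861 to 31853311. The RefSeq table gives PAX6 9 promoter windows with starts spread over 17.3 kb. NeuroD1 of H524 was at 31778751 to 31779338, 26.7 kb beyond the 3′ end, with 2 summits and at percentile 92.2. It was 52.1 kb from the nearest H524 mark. In GRCh38.p14, ELP4 is the only other protein-coding gene within 50 kb of PAX6, and the lists do not tell which gene a region belongs to. POU3F2 and POU4F1 likewise have protein-coding neighbours within that distance, FBXL4 and OBI1, and the other 6 genes have no protein-coding one. Non-coding genes or pseudogenes lie within that distance of every gene but ONECUT2, among them PROX1-AS1, ISL1-DT and PAX6-AS1. Regions were not assigned between them and the named genes.

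Between the lines, H3K4me3 had counterparts at most of these genes and NeuroD1 at PROX1 alone. The mark lay within 1 kb of the 5′ end, or of the low-coordinate end for PROX1 and SOX11, whose strand the table used here did not give, in both lines at 6 genes, in H82 alone at PROX1, and in H524 alone at ISL1 and NKX2-2. Of the 24 H82 marked regions at the 9 genes, 15 overlapped an H524 one (62.5%, 40.6 to 81.2), beside 52.4% over the whole H82 list. From the H524 side the overlap was 14 of 31 (45.2%, 27.3 to 64.0), beside 52.9% over its list. Both intervals include the value of the whole list, but they treat regions of 1 gene as independent draws, which they are not. Marked regions with a counterpart had a median width of 784 bp (H82) and 917 bp (H524), and those without one 384 and 454 bp. A wider region more easily meets the 1 bp of overlap required, and these widths were not computed over the whole lists. For NeuroD1, the PROX1 site was 1 of 2 regions in H82 (50%, 1.26 to 98.7), beside 53.6% over the H82 list. It was 1 of 24 in H524 (4.17%, 0.105 to 21.1), beside 9.98% over the H524 list. Both NeuroD1 intervals also include the value of the whole list, so the sharing of NeuroD1 at these genes was not set apart from that of the lists.

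Within H524, NeuroD1 at these genes lay on the mark in 11 of 24 regions (45.8%, 25.6 to 67.2), beside 16.0% over the whole H524 NeuroD1 list. Requiring 50% of the NeuroD1 region to be covered gave 7 of 24 (29.2%), beside 10.2%. The 11 regions came from 5 genes, 4 of them at SOX4, 3 at SOX11, 2 at ONECUT2 and 1 each at ISL1 and NKX2-2. Regions of 1 gene share their locus and are not independent draws. The windows were also centred on genes, where marked regions lie, whereas the list covers the genome. Of the H524 marked regions at the 9 genes, 10 of 31 lay on NeuroD1 (32.3%, 16.7 to 51.4), beside 18.0% over the list, and 25 of 31 had a NeuroD1 region within 50 kb (80.6%), beside 64.0%. In H82 neither NeuroD1 region lay on the mark, beside 29.4% over its list, and 0 of 24 marked regions lay on NeuroD1, beside 6.34%. NeuroD1 within 50 kb of the mark was found for 8 of the 24 H82 regions (33.3%), close to the 33.4% of all H82 marked regions.

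Of the places where NeuroD1 was listed in H524, 9 of 24 carried the mark in H82 (37.5%, 18.8 to 59.4), beside 15.6% of the whole H524 NeuroD1 list. All 9 were at ONECUT2, SOX4 and SOX11, and the limits given for the mark of H524 hold here too. Of the 24 regions, 8 lay on the mark of both lines, 3 on that of H524 alone, 1 on that of H82 alone and 12 on neither. The shares of these classes over the whole H524 NeuroD1 list were not computed, so this split has no value to stand beside. The regions on the mark of both lines were at ONECUT2, SOX4 and SOX11. Those on the mark of H524 alone were at ISL1, NKX2-2 and SOX4. The 12 unmarked ones came from 8 genes, all but ISL1.

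The highest-ranking NeuroD1 regions at these genes were PROX1 and PAX6, both off the mark, as were most high-ranking regions of the list. The 11 H524 regions on H3K4me3 had a median percentile of 29.0 and the 13 off it a median of 54.4, while over the whole list the medians were 46.1 and 50.8. Of the SOX4 pair above percentile 80, only the second touched the mark, by 49 bp. That made 1 of the 4 regions within the 3854 highest-scoring of H524 (25.0%), beside 12.2% of all 3854. Over all 24 regions the median percentile was 43.0 and the range 2.45 to 96.6. Those that scored under 2 were 3 regions, at ONECUT2, SOX4 and SOX11, and all 3 were among the 11 on the mark. The share of the whole list that scored under 2 was not computed, but a score of 2.13 stood at percentile 17.3. When only NeuroD1 regions that reached the median score were kept, 4 of 11 at these genes were on the mark (36.4%), beside 14.8% over the list treated likewise. With the marked regions limited to their median score as well, it was 2 of 11 (18.2%), beside 11.1%. The marked regions themselves had median percentiles of 52.1 in H82 and 50.4 in H524. The median NeuroD1 width in H524 was 448 bp, beside 470 bp over its list.

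**Figure D4:**
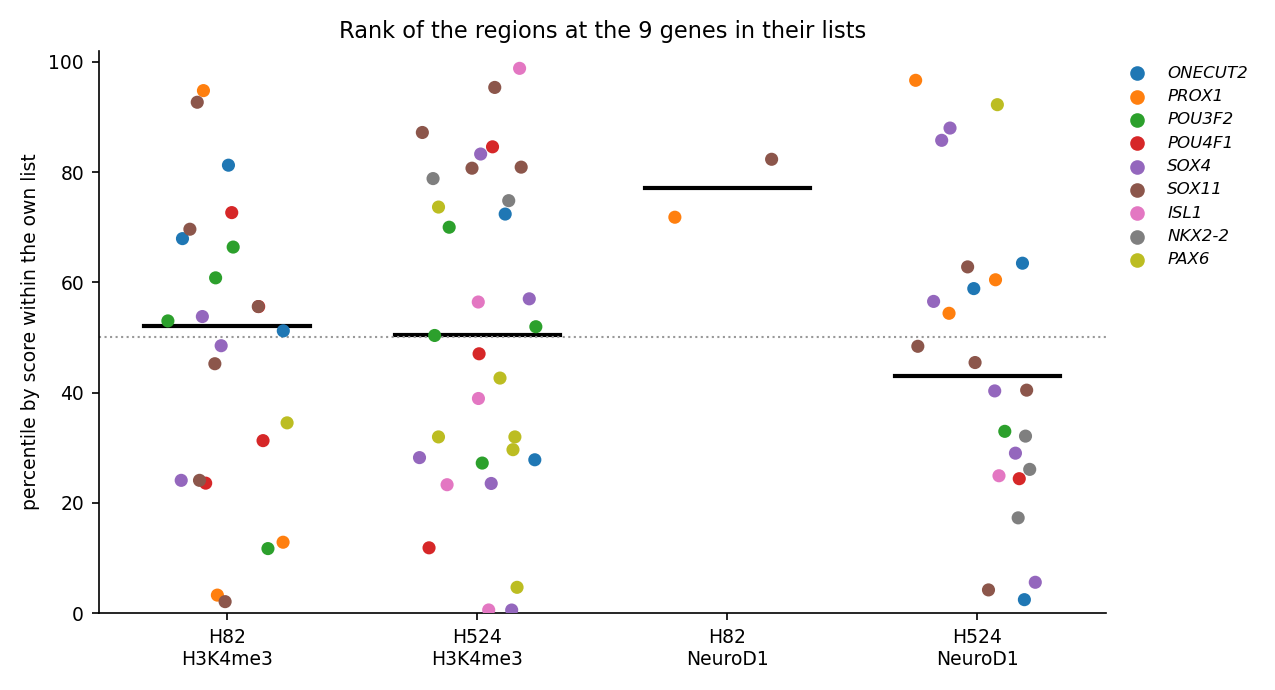
Percentile by score within its own list (vertical axis) of each region at the 9 genes, by line and antibody (horizontal axis), with points coloured by gene, black bars at the medians and a dotted line at 50. The medians are 52.1 and 50.4 for H3K4me3 of H82 and H524 and 43.0 for H524 NeuroD1, with ISL1 highest under H3K4me3 of H524 and PROX1 highest under NeuroD1 of H524.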

How the data were processed

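Per the labels, sonicated chromatin of untreated H82 and H524 cells was immunoprecipitated, and the submitters' processing notes name Bowtie 1.1.2, MACS2 2.1.1 and the build hg19. For peak calling settings and the use of the inputs, nothing is given in the sources used here. The deposited score is taken to be −log10 of an adjusted p-value, judged from its lowest value of 1.30, as no header names a unit. Identical intervals were merged, keeping the highest score. Coordinates are 1-based in hg19. Gene spans were given to 1 kb, and regions were taken within 50 kb of them. Overlap required 1 bp. Exons and introns were not annotated, as no hg19 annotation was used here. Strand, promoter letters and neighbouring gene names came from RefSeq tables of GRCh38.p14. The overlap and window counting was tested on simulated data. Python 3.11.15, pandas 2.3.3 and scipy 1.17.1 were used. The genes and the lists were chosen with earlier results of these data known. Named regions were the highest per gene and list, all H82 NeuroD1 regions, shared NeuroD1 pairs, H524 NeuroD1 regions on H3K4me3, and marked regions near a 5′ end; others were named after their values were seen. Alternatives changed the window, score limit, merging, list length and overlap rule.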

Additional observations from a re-analysis of the deposited data

How the results depend on the processing

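Of 72 recomputed values for 8 results, 59 stayed within 1.5-fold of the count or within the interval of the share, and 13 moved. Some of the 59 could not move, since limiting 1 list leaves the counts of the other lists unchanged. The H82 NeuroD1 shares rested on 2 regions, with intervals of 1.26 to 98.7% and 0 to 84.2%, so hardly any value could count as moved. With a window of 10 kb, H82 had 1 NeuroD1 region, and the share found in H524 was 100%; the same values, 1 and 100%, came without the SOX11 locus, which was chosen after seeing the data. Keeping, under both antibodies, only regions that reached the median score of their list gave 11 NeuroD1 regions in H524, of which 18.2% were on H3K4me3 limited in this way, and 14 and 16 H3K4me3 regions in H82 and H524. With NeuroD1 alone limited, also chosen after seeing the data, 36.4% of these 11 were on the mark. Limiting the H524 NeuroD1 list to the H82 length gave 4 regions. Of these, 25.0% were on H3K4me3, beside 12.2% over the list so limited. The share found in H82 was also 25.0%, and sharing over the list so limited was not computed, so it has no value to stand beside. Counting every summit gave 49 H3K4me3 entries in H524. Requiring 50% coverage of the region gave 29.2% of H524 NeuroD1 on the mark. Without SOX4, 38.9% of the H524 NeuroD1 regions were on the mark. No paired analysis was possible because each group had 1 library. Counts depend on unknown sequencing depth.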

Other observations

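From 50 to 100 kb around the genes, the lists added few regions. NeuroD1 gained 1 region in H524, at 55210114 to 55211030 on chromosome 18, 52.1 kb downstream of ONECUT2 and off the mark, and none in H82. H3K4me3 gained 3 regions in H82 and 5 in H524. A pair upstream of POU4F1, 79232607 to 79233047 in H82 and 79232615 to 79233227 in H524, shared 433 bp, and it was the only one of these found in both lines. Over the whole H3K4me3 lists, 52.4% of H82 and 52.9% of H524 regions had a counterpart. H82 alone had a second POU4F1 region 53.8 kb upstream and one 82.3 kb upstream of ONECUT2, at percentile 82.1. H524 alone had one 95.1 kb downstream of ONECUT2, at percentile 90.8, and 3 narrow ones between 65.4 and 67.6 kb downstream of SOX4. None of these regions lay on the other antibody's regions of the same line. In the whole lists, 6.34% of H82 and 18.0% of H524 H3K4me3 regions lay on NeuroD1. For H524 NeuroD1 on H3K4me3 the share was 16.0%. The regions added here were too few to be set apart from these shares.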
